A study of Caenorhabditis elegans with 2 samples.

Results

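Sites enriched with GFP-tagged NHR-20, a nuclear hormone receptor of the nematode *Caenorhabditis elegans*, were examined at 10 receptor genes that have clear orthologues outside nematodes: nhr-6, nhr-8, nhr-23, nhr-25, nhr-67, nhr-85, daf-12, sex-1, unc-55 and fax-1. The genes were chosen by name, out of 19973 protein-coding genes. Every pooled candidate summit in the gene or within 5 kb upstream was collected, which gave 59 of the 30000 candidates. Of these, 19 were in the authors' thresholded list, the 6423 pooled regions kept after their filter on agreement between replicates. The regions kept are exactly the 6423 of highest pooled signal, so a single one need not rank high in both replicates. Larvae were hermaphrodites of strain OP515, which carries unc-119(tm4063) and the insertion wgIs515, a transgene that expresses NHR-20 with a C-terminal GFP and FLAG tag. They were collected at the L1 stage, 6 hours after synchronization by bleaching and starvation, and whole animals of this genotype made up the single group of 2 biological replicates. The sites therefore pool all cells of the larva, and sites bound in few cells and weakly bound sites cannot be told apart. Untagged worms were not analysed here, and whether a summit reflects NHR-20 itself was not tested.

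Nuclear hormone receptors are transcription factors with a zinc finger DNA-binding domain and a ligand-binding domain, and many are switched by small lipophilic ligands. Many animal receptors recognize the core sequence AGGTCA or close variants of it. The nematode family is large and expanded within nematodes, whereas the genes described here descend from receptors shared with insects and vertebrates. Several act in larval timing. NHR-23 (a ROR and DHR3 orthologue), NHR-25 (SF-1 and FTZ-F1) and NHR-85 (Rev-erb and E75) act in moulting and stage progression, and DAF-12 couples the steroid-like dafachronic acids to the choice between growth and dauer arrest. The others specify cells or handle signals: NHR-67 (Tailless) the anchor cell, UNC-55 (COUP-TF) a class of motor neurons, FAX-1 (PNR) interneurons, NHR-6 (NR4A) the spermatheca, NHR-8 sterol and xenobiotic responses, and SEX-1 the count of X chromosomes.

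The sequence around the strongest thresholded summit is shown for the genes on chromosomes III, IV and X, to let the sites be compared by composition and motif. Each window holds the summit base and 50 bases to either side in the RefSeq copy of the WBcel235 (ce11) assembly, read 5′ to 3′ on the strand of the gene. Capitals mark GAGAG or its complement, and the GATA-type core TTATCA or its complement, the fixed motifs that occurred in these windows.
nhr-6, chrIII:3571632-3571732, plus strand: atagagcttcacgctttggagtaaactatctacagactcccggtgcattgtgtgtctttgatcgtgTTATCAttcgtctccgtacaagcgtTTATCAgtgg
nhr-8, chrIV:7709841-7709941, plus strand: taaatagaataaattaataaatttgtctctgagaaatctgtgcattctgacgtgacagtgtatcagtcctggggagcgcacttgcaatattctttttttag
nhr-25, chrX:13008193-13008293, plus strand: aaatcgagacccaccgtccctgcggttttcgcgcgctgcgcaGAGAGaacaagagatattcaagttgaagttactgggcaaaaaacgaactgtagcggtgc
daf-12, chrX:10637615-10637715, plus strand: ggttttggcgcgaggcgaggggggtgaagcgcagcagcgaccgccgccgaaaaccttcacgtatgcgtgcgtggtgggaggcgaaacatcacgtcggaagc
sex-1, chrX:10204776-10204876, minus strand: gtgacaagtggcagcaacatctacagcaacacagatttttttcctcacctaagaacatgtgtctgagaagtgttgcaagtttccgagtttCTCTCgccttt
The daf-12 window, from the site of highest signal among the 10 genes, had a GC content of 65.3% and held none of the fixed motifs. In the 201 bases used for the motif counts its GC content was 53.2%, and CTGCGTCT and GAGAG were present. The nhr-8 window had 34.7% GC and held none, in the longer window either. The nhr-6 window held TTATCA at both of its marked places. None of these windows held AGGTCA.

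Sites fell on 7 of the 10 genes, and the same 7 had all the candidates. Per gene there were 5 thresholded summits at nhr-85, 4 each at nhr-25 and daf-12, 2 each at nhr-8 and nhr-23, and 1 each at nhr-6 and sex-1. nhr-67, unc-55 and fax-1 had 0 thresholded summits and 0 candidates. Among all protein-coding genes, 38.4% had a thresholded summit in the same kind of window. The receptor windows were 8228 to 35968 bp long, and among the 5817 protein-coding genes with windows in that range the share was 48.1%. For other genes named nhr it was 54.8% (144 of 263). A candidate of any strength lay in 82.7% of the windows in that length range. The count of 7 in only 10 genes is not far from these shares and is not read as particular to them.

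The number of summits per gene had a wide spread. Among genes of like window length, 3.32% had 4 or more thresholded summits, and nhr-25, nhr-85 and daf-12 were 3 such genes among the 10. For nhr-85 and daf-12, as for the comparison genes, sites near other genes were counted too: 2 of the 5 at nhr-85 lay in the promoter of hpo-2, which leaves 3, and 1 of the 4 at daf-12 lay nearest to M79.2. By the RefSeq start of daf-12, its sites 1757 bp into the gene and 4578 bp upstream fall outside the window. The daf-12 window, at 35968 bp, was far longer than the median of 10272 bp in that range, so its count is spread over more DNA. Per 10 kb of window there were 4.19 thresholded summits at nhr-85, 3.82 at nhr-25 and 1.11 at daf-12. The genome as a whole had 0.641 per 10 kb, and the 10 windows together 1.51. The genome value covers all DNA and is not matched to gene windows, and the window values include sites in promoters of other genes.

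**Figure D1:**
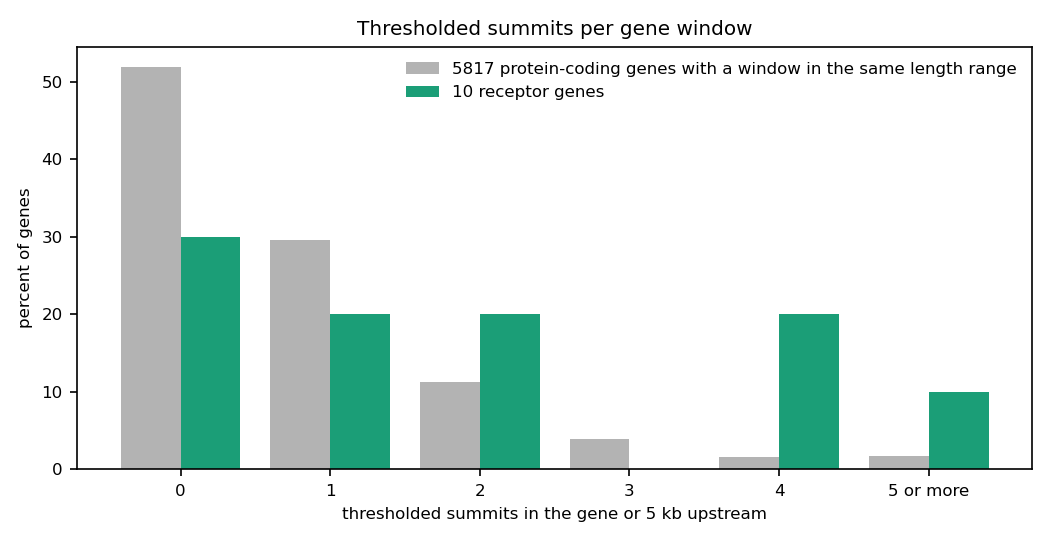
Percent of genes (y axis) by number of thresholded summits in the gene or 5 kb upstream (x axis), for the 10 receptor genes (green) and the 5817 protein-coding genes with windows of 8228 to 35968 bp (grey). Of the 10 receptor genes, 3 had none and 3 had 4 or more, against 3.32% of the comparison genes with 4 or more. Sites near other genes are counted in both sets.

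Most sites were of modest strength. Signal is the value the authors' caller gave each region relative to the control, and is compared only within the pooled list. The 19 summits had signals from 86.27 to 510.5 with a median of 135.5, where the thresholded list of 6423 ran from 85.96 to 2711 with a median of 169.5. In all, 8 of the 19 lay above that median. They were spread over 5 of the 10 genes, and 30.8% of genes of like window length had a summit above it. By strongest site the order was daf-12 (510.5), nhr-85 (314.9), nhr-25 (275.7), nhr-23 (212.4), nhr-8 (200.1), sex-1 (102) and nhr-6 (98.05). The values of nhr-85 and nhr-8 come from sites in promoters of other genes. Without sites of that kind nhr-85 stands at 261.8, below nhr-25, and nhr-8 at 89.88, below sex-1 and nhr-6. With a single pooled value per site no error can be put on these gaps.

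Sites lay in promoters, introns and upstream DNA, and none of the thresholded ones in an exon outside a promoter window. By place relative to the receptor gene, 6 summits were in a promoter window (1000 bp upstream to 300 bp downstream of a coding transcript start), 7 in introns and 6 further upstream. A promoter summit was found at 4 genes (nhr-8, nhr-23, nhr-25 and nhr-85), against 20.6% of all protein-coding genes. A promoter window was drawn at each start, and these 4 genes had 2, 6, 3 and 2 distinct starts. That share was not matched for the number of starts or for window length. An intronic summit was found at 5 genes (nhr-23, nhr-25, nhr-85, daf-12 and sex-1), against 9.44% of genes of like window length. A further 2 promoter summits, at nhr-25 and nhr-85, also lay inside introns, upstream of a later transcript start. Of the 19 summits, 15 had a start of the receptor gene as the nearest coding start, and 3 lay in promoters of other genes.

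**Figure D2:**
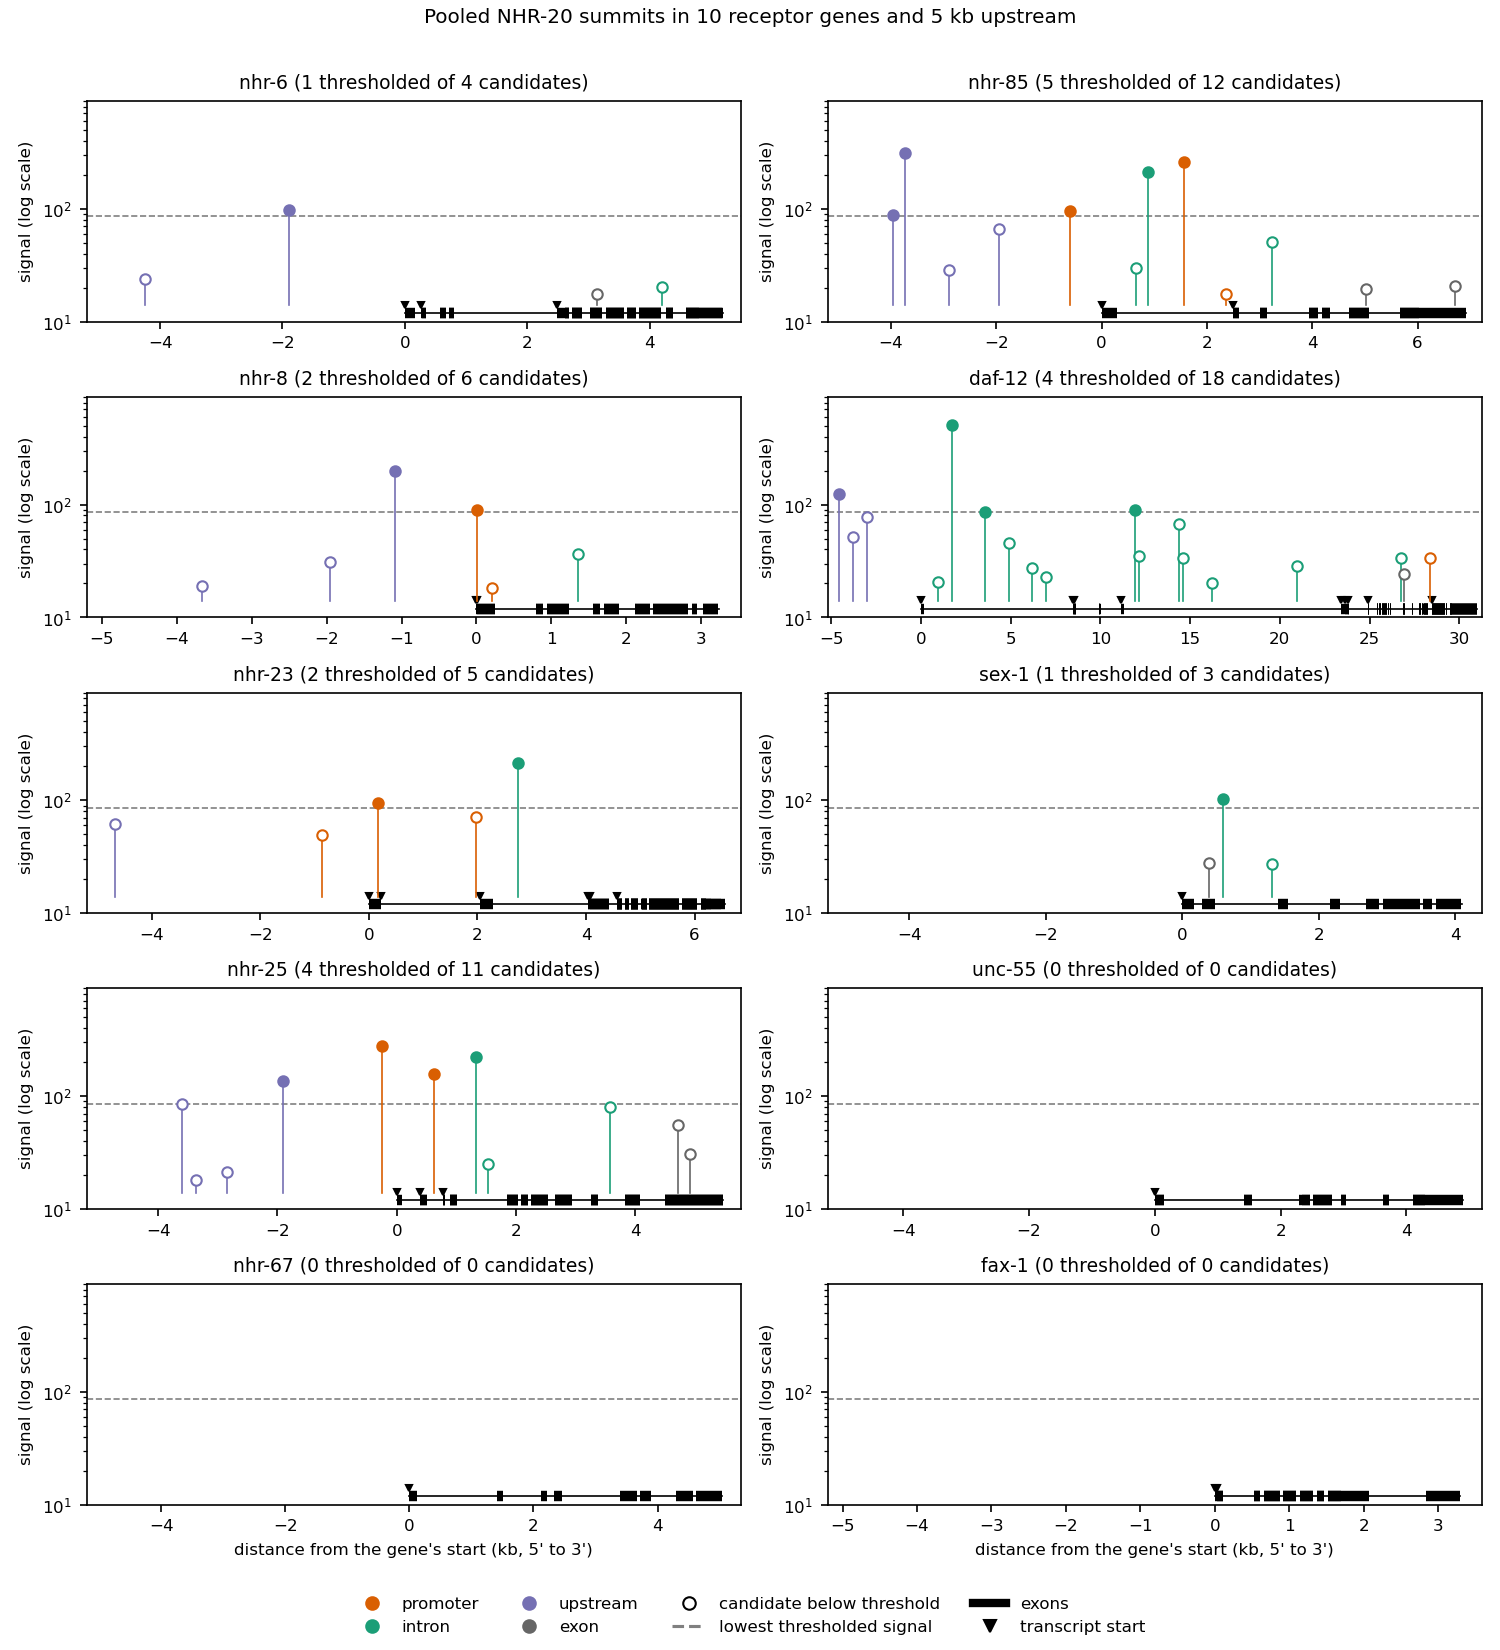
Signal on a log axis against distance from the start of the gene in kb for all 59 candidate summits; filled points are the 19 thresholded ones, open points the 40 weaker candidates, colours give the place, and exons and transcript starts are drawn at the foot. The panels of nhr-67, unc-55 and fax-1 are empty, and the tallest point is the intronic daf-12 site at 510.5.

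Among the moulting and timing receptors, nhr-85 (WBGene00003675, chromosome I, 13055201 to 13062122, minus strand, 2 transcripts) encodes a factor that times larval stage transitions and had the most thresholded summits, 5. Its first intron, 2196 bp long, held a pair of strong summits. One lay 1559 bp downstream of the first start and 938 bp upstream of the second (region 13060436 to 13060669). It had a signal of 261.8 and ranked 1829 in the pooled list, 1739 in replicate 1 and 1999 in replicate 2. The other lay 873 bp into the gene (signal 209.8, region 13061161 to 13061268) and ranked 2494, 2740 and 2285 in the same lists. Both replicates therefore ranked the pair at 2740 or better.

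Upstream of nhr-85 the sites were less even. A promoter summit 607 bp upstream of the first start had a signal of 95.4 and ranked 5805 in the pooled list and 4436 in replicate 1. In replicate 2 it ranked 24295, the largest gap between replicates of any of the 19. The strongest site in the window lay 3734 bp upstream (signal 314.9, region 13065738 to 13065936) and ranked 1411, 1376 and 1479. A weaker one 3950 bp upstream (signal 88.01) ranked 6269, 8313 and 4833. This upstream pair lay in the promoter window of hpo-2, whose start is nearer than that of nhr-85, so it cannot be assigned to nhr-85. For weaker candidates, the signal is followed by the ranks in the pooled list, replicate 1 and replicate 2, with none where a replicate had no summit within 200 bp. Some weak candidates share a replicate region with a stronger neighbour, as at nhr-8 (213 bp), nhr-25 (1530 bp), nhr-85 (659 bp), daf-12 (12132 bp) and sex-1 (389 bp). At nhr-85 they were at 1956 bp (signal 65.79, ranks 8131, 7524 and 16207) and 2897 bp upstream (28.46, ranks 17642, 17011 and none). Inside the gene they lay at 659 bp (29.63, ranks 16878, 26877 and 2285), 2353 bp (17.53, ranks 29836, none and 19398) and 3238 bp (50.85, ranks 10015, 15899 and 7048) from the start. A pair in the 3′ part, at 5024 bp in coding sequence (19.46, ranks 26794, none and none) and at 6715 bp in untranslated sequence (20.5, ranks 25344, 16919 and none), overlapped npr-14.

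nhr-25 (WBGene00003623, chromosome X, 13008493 to 13013964, plus strand, 3 transcripts), needed in epidermal cells and for moulting, held 4 thresholded summits around its 3 starts. The strongest lay 250 bp upstream of the first start (region 13008084 to 13008419, signal 275.7) and ranked 1697 in the pooled list, 1529 in replicate 1 and 1992 in replicate 2. A second promoter summit lay 622 bp into the gene and 151 bp upstream of an internal start, in the 257 bp second intron (signal 157.7), and ranked 3479, 3476 and 3799. An intronic summit 1327 bp into the gene, in the fourth intron, had a signal of 222.6 and ranked 2308, 1958 and 3150. The last lay 1902 bp upstream (signal 135.5) and ranked 4059, 3827 and 3687. All 4 ranked at 3827 or better in both replicates. The first overlapped the annotated non-coding RNAs F11C1.12 and F11C1.13, the second F11C1.11 and the intronic one F11C1.16, which have no stated role here.

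The nhr-25 window also held the candidate that came closest to the threshold. It lay 3603 bp upstream with a signal of 85.8 and a pooled rank of 6434, just outside the 6423 kept, and ranked 7114 and 6470 in the replicates. The member site just inside was at daf-12, with a signal of 86.27 and rank 6395. An intronic candidate of nhr-25 at 3578 bp (signal 79.73) ranked 6805 in the pooled list, 6266 in replicate 1 and 11999 in replicate 2. In the last exons, candidates lay at 4713 bp in coding sequence (55.52, ranks 9324, 13058 and 9555) and at 4912 bp in untranslated sequence (30.69, ranks 16282, 28442 and 9555). The remaining ones lay 3374 bp (18.17, ranks 28785, 16285 and none) and 2852 bp (21.45, ranks 24099, 16698 and none) upstream and 1530 bp into the gene (25.09, ranks 20267, 1958 and 3150).

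nhr-23 (WBGene00003622, chromosome I, 7214745 to 7221299, plus strand, 6 transcripts) drives genes of each moulting cycle. Its strongest summit was intronic, 2752 bp into the gene and 713 bp downstream of an internal start, in a second intron of 1756 bp (region 7217299 to 7217694). With a signal of 212.4 it ranked 2453 in the pooled list, 2346 in replicate 1 and 2723 in replicate 2. A promoter summit lay 168 bp downstream of the first start and 54 bp upstream of an internal start, in untranslated exon sequence (signal 94.29), and ranked 5884, 6194 and 6202. Another candidate, 67 bp upstream of an internal start, stayed below the threshold (signal 70.85, ranks 7588, 7303 and 10673). The last candidates were 861 bp upstream (49.38, ranks 10275, 9400 and 13478) and 4676 bp upstream (61.18, ranks 8613, 8973 and 9795), the latter in the promoters of C01H6.3 and C01H6.4.

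daf-12 (WBGene00000908, chromosome X, 10635908 to 10666875, plus strand, 10 transcripts) had the strongest site of all 10 genes. It lay 1757 bp into the gene, in a first intron of 8353 bp (region 10637491 to 10637814), with a signal of 510.5. It ranked 602 in the pooled list, 597 in replicate 1 and 592 in replicate 2, so both replicates placed it nearly alike. Whether this site counts as intronic depends on the annotation. RefSeq starts daf-12 at 10644409, which puts the site 6744 bp upstream of the gene and outside the 5 kb window. It lay in no other annotated gene or promoter window.

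The other sites at daf-12 were weaker. A second summit in the first intron, 3583 bp from the start (signal 86.27), ranked 6395 in the pooled list, 5322 in replicate 1 and 13146 in replicate 2. By the RefSeq start this site too lies upstream, at 4918 bp, and not in an intron. Another, in the fourth intron of 12127 bp and 784 bp downstream of an internal start (signal 88.9), ranked 6202, 7240 and 6416. The upstream summit at 4578 bp (signal 124.7) ranked 4448, 4718 and 4052, and its nearest coding start was that of M79.2. The 14 weaker candidates had signals from 20.1 to 78.02. The strongest of them lay 3014 bp upstream (78.02, ranks 6945, 6467 and 7244), 14407 bp into the gene (66.89, ranks 8010, 8319 and 10118) and 3761 bp upstream (51.23, ranks 9956, 9823 and 12455).

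Of the 14, 10 were spread along the introns. Besides the one at 14407 bp, they lay at 938 bp (signal 20.73, ranks 25025, none and 21896), 4894 bp (45.75, ranks 11008, 13092 and 9438), and 6213 bp (27.27, ranks 18506, 12352 and none) in the first intron. Further candidates were at 6942 bp (22.91, ranks 22407, 29634 and 29703), 12132 bp (34.87, ranks 14297, 12200 and 6416), and 14618 bp (33.95, ranks 14710, 13946 and 14923). The last intronic ones were at 16214 bp (20.1, ranks 25924, none and 12554), 20939 bp (28.85, ranks 17378, 15595 and none) and 26737 bp (33.9, ranks 14726, 15467 and none). One in coding sequence lay at 26940 bp (24.15, ranks 21144, 26752 and none). One 155 bp upstream of an internal start lay at 28343 bp (33.47, ranks 14922, 10984 and none). Beyond 11933 bp, therefore, the gene held weak candidates and no thresholded summit.

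Sites at nhr-8, nhr-6 and sex-1 were few. nhr-8 (WBGene00003607, IV, 7710983 to 7714210, plus strand), a close relative of daf-12, had a summit 1092 bp upstream (region 7709824 to 7710008, signal 200.1) that ranked 2644, 2505 and 3081 in the pooled list and replicates 1 and 2. That summit lay in the promoter windows of mrpl-1, emc-6 and mrps-24, the last of which had the nearest start, so it cannot be assigned to nhr-8. The summit at its own start, 12 bp downstream in untranslated sequence, had a signal of 89.88 and ranked 6135, 6644 and 6696. That puts it just outside the 6423 strongest regions of each replicate. Weaker candidates lay 3657 bp (19.15, ranks 27290, none and none) and 1950 bp (31.05, ranks 16109, 23070 and 12333) upstream, in promoters of F33D4.4 and mrpl-1, and 213 bp (18.39, ranks 28444, none and 6696) and 1357 bp (36.28, ranks 13753, 13425 and none) into the gene.

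sex-1 (WBGene00004786, X, 10201329 to 10205421, minus strand), an X-linked signal that represses xol-1 in hermaphrodites, had a thresholded summit only in an intron. It lay 595 bp from the start in a second intron of 923 bp (region 10204628 to 10205023, signal 102) and ranked 5419 in the pooled list, 4978 in replicate 1 and 6413 in replicate 2. Candidates at 389 bp in coding sequence (27.62, ranks 18241, none and 6413) and 1314 bp in an intron (27.1, ranks 18636, 19461 and 10020) flanked it. nhr-6 (WBGene00003605, III, 3573581 to 3578771, plus strand) had its only thresholded summit 1899 bp upstream, with a signal of 98.05 and ranks of 5647, 5641 and 6866. Its other candidates were 4244 bp upstream (23.99, ranks 21311, 13814 and none), at 3133 bp in coding sequence (17.66, ranks 29605, 27920 and none) and at 4208 bp in an intron (20.35, ranks 25545, none and 29271).

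The 3 genes with no candidate specify single cells or neuron classes. Whether that bears on the lack of sites was not tested, and a candidate lay in 82.7% of windows in the same length range. For nhr-67 (WBGene00003657, IV, 11169748 to 11174791) the nearest candidate lay 1381 bp past the end of the gene, with a signal of 28.66. The nearest thresholded summit was 4623 bp past that end, a strong peak of signal 539.6 and rank 527 whose nearest start was that of cpt-2, a carnitine palmitoyltransferase gene. For unc-55 (WBGene00006790, chromosome I, 7898434 to 7903334) the nearest candidate was 8513 bp upstream (signal 31.8) and the nearest thresholded summit 14496 bp beyond the window (138.7). For fax-1 (WBGene00001400, X, 3196064 to 3199349) these were 9696 bp upstream (21.93) and 36233 bp upstream (87.19). The candidate list ends at a signal of 17.44, so weaker binding at these genes was not detectable.

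The replicates were compared by rank, since their signals are not on 1 scale. Of the 19 summits, 14 had a summit within 200 bp among the 6423 strongest regions of both replicates, and all 19 had a candidate in both. Taking the nearest replicate summit, the number was 13, since the site 3950 bp upstream of nhr-85 counts in replicate 1 only through the region of its stronger neighbour. By the nearest summit, 16 were among the strongest regions of replicate 1 and 15 among those of replicate 2. The 8 sites above the median signal all ranked at 3150 or better in both replicates. Disagreement was largest at the weak sites of nhr-85 (607 bp upstream) and daf-12 (3583 bp), both ranked far lower in replicate 2. Of the 40 candidates below the threshold, 8 had no counterpart in replicate 1, 14 none in replicate 2 and 2 none in either. The thresholded list was drawn from these replicates pooled, so the ranks are not independent of the choice of sites.

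**Figure D3:**
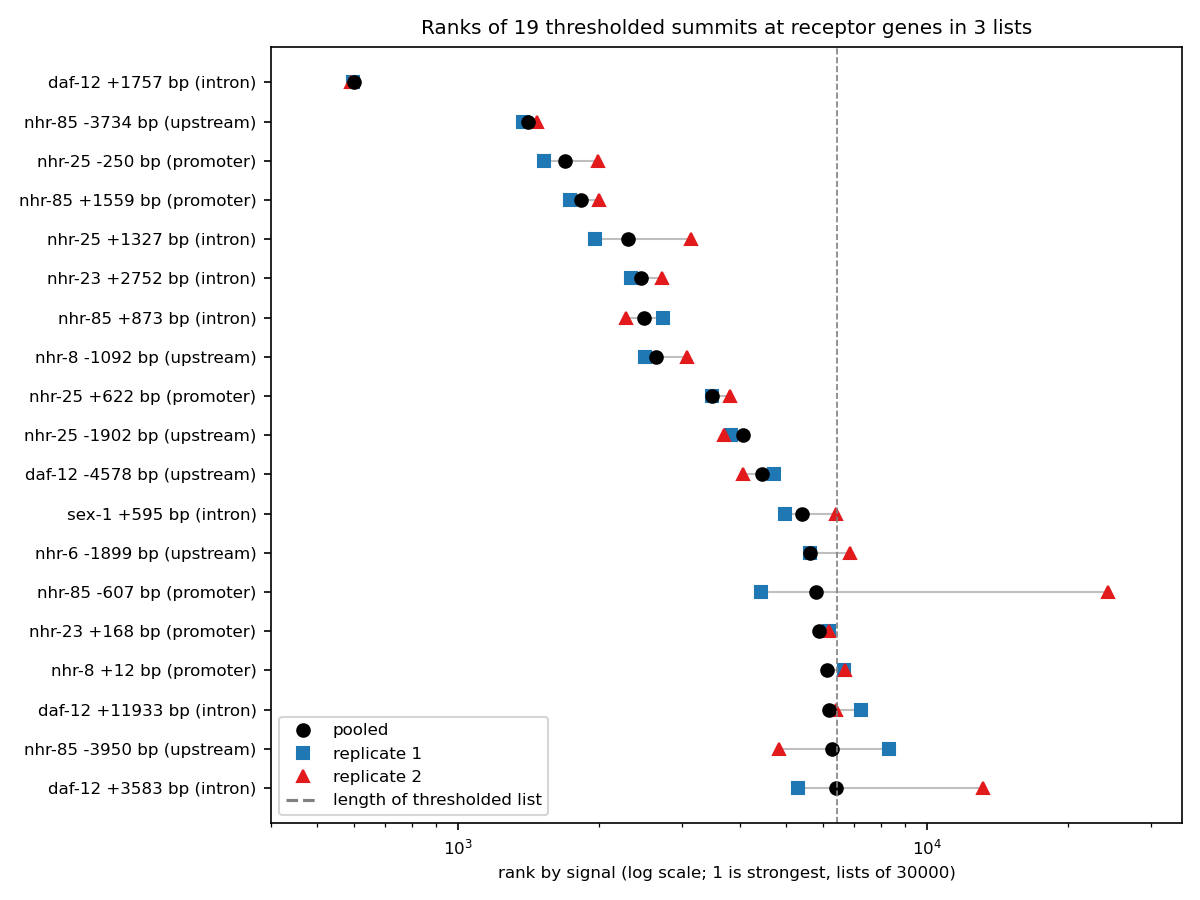
Rank by signal on a log axis (1 is strongest) of the 19 thresholded summits in the pooled list (circles), replicate 1 (squares) and replicate 2 (triangles); the dashed line marks rank 6423. The daf-12 site at 1757 bp ranks 602, 597 and 592, while the nhr-85 site 607 bp upstream ranks 4436 and 24295 in the replicates.

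The receptor core was looked for in the 201 bases around each summit, on both strands, among 8 fixed motifs. AGGTCA occurred in 7 of the 19 windows (36.8%), against 8.41% of all 6423 thresholded windows. In windows of the same width centred 500 bp to either side, it occurred in 3 of 38 (7.89%) for these sites and in 5.17% for all. The 7 windows came from 4 genes: 3 from nhr-85, 2 from nhr-23 and 1 each from nhr-25 and daf-12, so they are not independent of one another. Those of nhr-85 include the site 3734 bp upstream, in the promoter of hpo-2, which cannot be assigned to nhr-85. The extended form AAGGTCA, which contains AGGTCA, occurred in 3 of the 19 windows (15.8%) against 3.41% of all windows. In the flanking windows it occurred in 2 of 38 (5.26%) for these sites and in 1.7% for all. The longer TCAAGGTCA occurred in 0 of the 19 against 0.436%. A match gives only the letters and does not show a bound site.

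The other motifs stood close to or under their shares in all windows. GAGAG occurred in 10 of the 19 (52.6% against 56.4%), TTATCA in 4 (21.1% against 23.4%), TTTCCC in 3 (15.8% against 19.3%), CTGCGTCT in 3 (15.8% against 12.4%) and the E-box CACGTG in 1 (5.26% against 11.6%). In the flanking windows of these sites GAGAG occurred in 13 of 38 (34.2%), TTATCA in 8 (21.1%) and TTTCCC in 4 (10.5%). CACGTG occurred there in 1 (2.63%) and CTGCGTCT in 0. For all sites the flanking shares were 23.4%, 18.5%, 14.4%, 3.72% and 0.965%, in that order. The 19 windows had a median GC content of 44.8%, from 28.4% at nhr-8 to 60.7% at nhr-23, and all thresholded windows had a median of 41.3%. The part of base composition in the motif shares was not tested.

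The window with AGGTCA is shown for the nhr-25 site 622 bp into the gene, since it shows where the core stands. It has 201 bases centred on the summit, on the strand of the gene, with the core in capitals. The centre of the core lay 40.5 bp from the summit, and an A precedes it. That A and the first A of the core also end a complement of TTATCA, so these matches overlap. GAGAG and TTTCCC or their complements occurred in this window too, and only the core is in capitals.
nhr-25, chrX:13009015-13009215, plus strand: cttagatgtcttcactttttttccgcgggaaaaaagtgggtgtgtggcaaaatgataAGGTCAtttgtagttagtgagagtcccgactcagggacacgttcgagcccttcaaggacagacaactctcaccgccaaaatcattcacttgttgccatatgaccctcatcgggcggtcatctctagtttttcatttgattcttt

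Genes that act with these receptors, and a list of 13 other receptor genes, were read in the same kind of window. In all, 30 of the 67 genes in these 5 lists had a thresholded summit (44.8%). The share was 38.4% of all protein-coding genes and 48.1% of those with windows of 8228 to 35968 bp. In the dafachronic acid and DAF-12 list the count was 6 of 12. The summits lay at din-1, which encodes a DAF-12 corepressor (8 summits, strongest signal 745.8, rank 261), and lin-28, an RNA-binding heterochronic factor (signal 570.5, rank 463). They also lay at emb-8, lin-14, ncr-1 and hbl-1. The other 6, daf-9, daf-36, dhs-16, hsd-1, ncr-2 and strm-1, had none. In the moulting list 7 of 16 had a summit, led by myrf-1, a membrane-bound transcription factor (signal 393.2, rank 969), and lin-42, the Period homologue (signal 306.9, rank 1463). The others with a summit were pan-1 (245.6), let-413 (187.8), blmp-1 (147.6), bli-1, a cuticle collagen gene (128.6), and lin-3 (92.77). No thresholded summit was found at bed-3, nas-36, nas-37, mlt-8, mlt-10, mlt-11, noah-1, qua-1 and dpy-7. The bli-1 value came from a summit 4172 bp upstream, in the promoter window of col-39 and within dph-2. That summit cannot be assigned to bli-1.

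Among the sex determination genes 6 of 11 had a summit. xol-1, the switch gene that SEX-1 represses, had 2. The stronger lay 4873 bp upstream, near the 5 kb limit, with a signal of 1047 and a rank of 88. The strongest summit of sea-2, in an intron, had a signal of 368.8 (rank 1084). In the list of neuron and anchor cell partners 3 of 15 had a summit: fos-1 (signal 927.4, rank 137, 3105 bp upstream), the corepressor gene unc-37 (158.3, rank 3465) and the Hox gene lin-39 (152.1, rank 3599). unc-30, unc-4, ceh-10, kal-1 and oig-1 had no candidate at all. In the list of 13 other receptor genes 8 had a summit, beside 54.8% of other genes named nhr, led by nhr-14 (signal 1055, rank 83) and nhr-35 (865.6, rank 163). Both of these exceeded the strongest site of the 10 genes, 510.5 at daf-12.

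**Figure D4:**
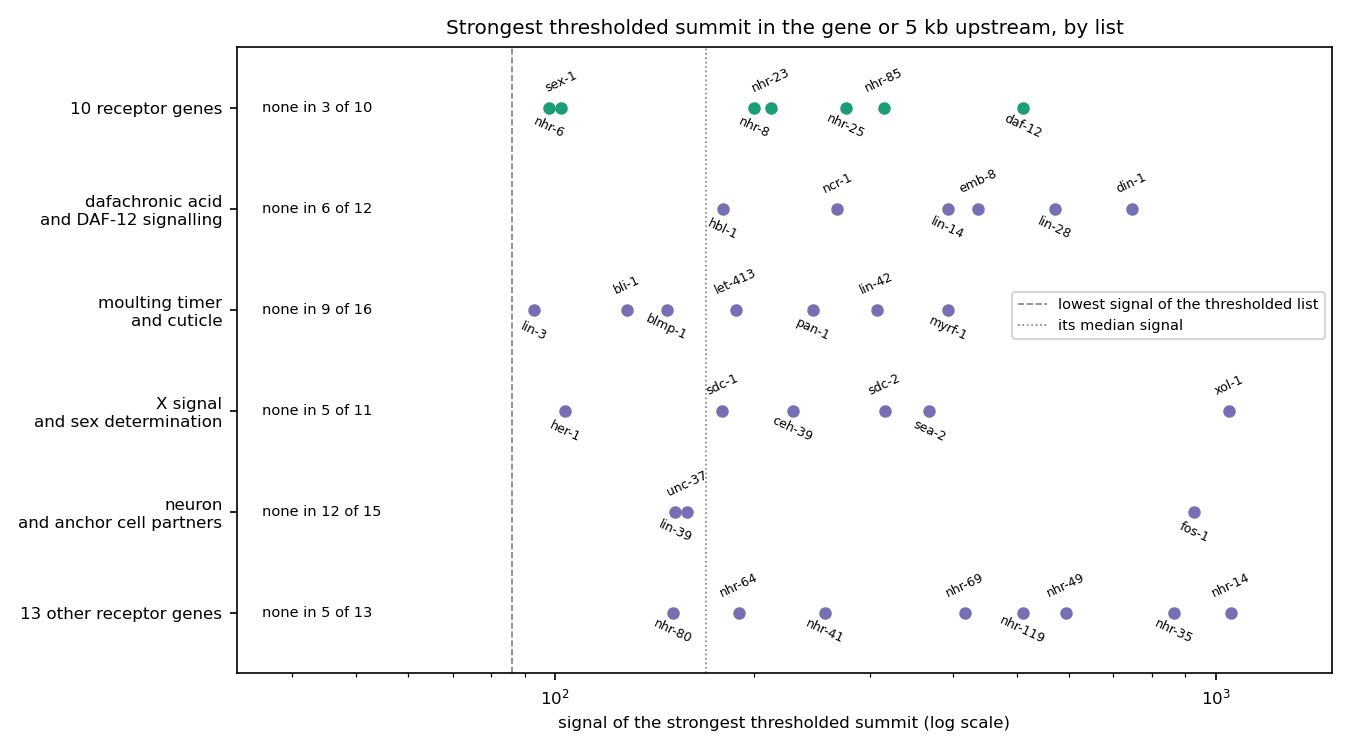
Signal of the strongest thresholded summit per gene on a log axis, for the 10 receptor genes (green) and the 5 lists of other genes (purple); text at the left gives the genes with none, and the lines mark the lowest (85.96) and median (169.5) signal of the thresholded list. The receptor genes run from 98.05 at nhr-6 to 510.5 at daf-12, and 12 of the 15 neuron and anchor cell partners have none.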

How the data were processed

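Chromatin immunoprecipitation with an anti-GFP antibody was followed by sequencing in 1 group of 2 biological replicates. Per the deposited notes, regions were called against control alignments in either replicate and in both pooled, and a pooled list was then cut by the irreproducible discovery rate. Which aligner, caller and rate were used is not given in the sources used here. The lists hold a signal per region, set by the authors' caller and a deposited −log10 q-value. Read depth is unknown, so no counting error could be given.

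The ce11 lists were read with the WBcel235 gene models of Ensembl release 115 and symbols from RefSeq. A summit was column 2 plus column 10 of the list, written 1-based. It belonged to a receptor gene when it lay in the gene or within 5 kb upstream. A promoter covered 1000 bp before and 300 bp after a coding transcript start, and an intronic site lay in the gene outside all exons and promoters. Replicate ranks are those of the nearest replicate summit within 200 bp. Python 3.11.15 and pandas 2.3.3 were used, and placement was tested on simulated data. No test was run, because there is 1 condition, and the genes, lists and motifs were chosen with earlier results of these data known. From each list of other genes the 2 of highest signal were named. Genes named beyond that, and 1 of the printed sequence windows, were chosen after their values were seen. The ce10 lists were not used here. The sequence of 1 further window is not reported here.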

Additional observations from a re-analysis of the deposited data

How the results depend on the processing

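Of 41 recomputed counts, 38 stayed within 1.5 times the reported value. The exceptions all came from keeping only summits above the median signal of the thresholded list, which leaves fewer summits by construction. Receptor genes with a promoter summit then numbered 2 in place of 4, summits in the gene windows 8 in place of 19, and intronic summits 4 in place of 7. With the 6423 strongest regions of 1 replicate, the 10 windows held 15 summits (replicate 2) or 17 (replicate 1), and 6 or 7 genes had one. nhr-6 was the gene without one in replicate 2. An upstream limit of 1000 bp left 6 genes and 13 summits, and gave 22 in place of 30 among the 67 other genes. With the RefSeq bounds, an alternative chosen after seeing the data, 7 genes had a summit. The windows then held 17 summits in place of 19, and 5 intronic ones in place of 7. The strongest site at daf-12 and its site 4578 bp upstream fell outside the window. Signals end at 17.44 in the pooled list, so weaker binding could not be seen.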
